A study of Mus musculus with 15 samples.

Results

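The genes described here build ribosomes or make polyamines. The list names 39 mouse genes, chosen by symbol, and each was read from the array as the probe set with the highest mean signal of those that name only that gene. Of the 39, 37 had such a probe set and all 37 passed the filter on low signal, out of 18193 named genes and 11902 genes tested. The remaining 2, Sms (spermine synthase) and Amd1 (S-adenosylmethionine decarboxylase), are not analysed here, because the Sms probe sets also match the pseudogene Sms-ps and no probe set was named for Amd1.

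RNA of 15 mouse samples was measured, each on 1 oligonucleotide array. The lymphoma group held 9 peripheral T cell lymphomas (mPTCL 1 to 9) that grew in C57BL/6 CD3KO hosts, which make no mature T cells of their own, after transfer of p53KO T cells, and were purified from the liver by sorting. The activated group held 3 samples of normal T cells of C57Bl/6 p53 KO mice aged 5 weeks, activated in culture, and the resting group 3 samples of T cells of such mice without that activation. All 3 groups therefore lack p53, and no group of p53 wild type T cells was compared. The normal cells were sorted from liver or spleen, and their growth protocol mentions injections of PBS or of killed Streptococcus pneumoniae every 2 weeks without saying which donors had them. The labels do not give the activating agent or its duration, nor say that samples of a group are separate animals. The p-values hence cover only the spread between these samples, which may be technical.

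Ribosomes are assembled in the nucleolus. RNA polymerase I copies the ribosomal RNA genes, small nucleolar ribonucleoproteins (snoRNPs) guide the methylation, pseudouridylation and cutting of that RNA, and separate sets of factors then build the large and the small subunit. Polyamines are small positively charged molecules that bind RNA and are needed for translation; many genes of both processes are known targets of the transcription factor Myc, and resting T cells are known to expand both when they start to grow.

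Promoter sequences are shown because several of these genes carry an E-box, CACGTG, the sequence that Myc binds with its partner Max, and most of these E-boxes lie just after the start site. RefSeq promoters of the build GRCm38.p6, each running from 250 bases before to 50 after a start site, were given for 33 of the 39 genes. The E-box, which reads the same on both strands, was in the promoters of 8 of these 33 genes (24.2%), against 11.7% of the genes tested and 8.09% of all genes with a promoter. The 7 windows from measured genes follow, 5′ to 3′ on the gene's strand, with the E-box in capitals.
Nop2, chr6:125131811-125131840, plus strand: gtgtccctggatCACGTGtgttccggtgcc
Grwd1, chr7:45830740-45830767, minus strand: gggccggagtcgCACGTGtgaaaccgga
Utp20, chr10:88826765-88826789, minus strand: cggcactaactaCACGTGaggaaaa
Pes1, chr11:3963965-3963994, plus strand: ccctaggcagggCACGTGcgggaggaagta
Mybbp1a, chr11:72441355-72441376, plus strand: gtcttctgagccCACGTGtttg
Tsr1, chr11:74898092-74898121, plus strand: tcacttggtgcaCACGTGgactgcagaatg
Wdr43, chr17:71616220-71616249, plus strand: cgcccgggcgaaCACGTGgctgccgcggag
Counted from the start site, the first base of the E-box stood at -60 in Nop2, 3 in Pes1, 18 in Wdr43, 25 in Tsr1, 35 in Grwd1, 38 in Utp20 and 41 in Mybbp1a. The 8th gene, the unmeasured Sms, had its E-box at -196. Of the 8 E-boxes, 6 (75.0%) thus began after the start site, against 13.4% of the 1356 E-boxes in promoters of the genes tested. The 7 measured genes with an E-box had a median difference between activated and resting cells of -1.19 on the log2 scale, and the 24 measured genes whose promoter held none had a median of -0.88, with ranges that overlapped. These matches describe the letters of the windows and no binding was measured.

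**Figure D1:**
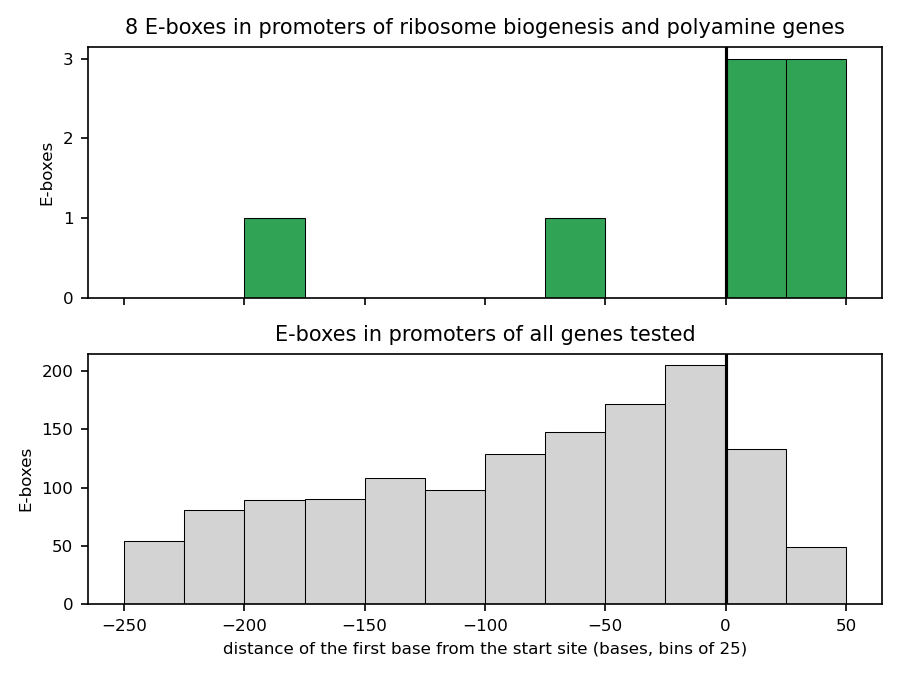
Number of E-boxes by the distance of their first base from the start site, in bins of 25 bases, for ribosome biogenesis and polyamine genes (top) and for all genes tested (bottom); the vertical line marks the start site. The 6 E-boxes after the start site lie in the last 2 bins, where the genes tested had 133 and 49.

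Another motif is shown for 3 genes without an E-box that differed clearly between groups. CCGGAAG, a core sequence of Ets factors, was found on either strand in the promoters of 12 of the 33 genes (36.4%), against 20.1% of genes tested and 9.93% of all genes. The 3 genes shown were picked for their differences. The other carriers were Gar1, Ebna1bp2, Noc2l, Nop2, Grwd1, Nip7, Tsr1, Polr1c and the unmeasured Sms, and of these Noc2l and Nop2 were called in no comparison. The Ets core is in capitals here, and it does not overlap the E-box.
Ppan, chr9:20888181-20888210, plus strand: agccgcgtggcaCCGGAAGttggccacgta
Nhp2, chr11:51619738-51619767, plus strand: ccacttgaaaacCCGGAAGtgatgtcggag
Nolc1, chr19:46075821-46075850, plus strand: acgcgtgtgggaCCGGAAGcaacttctaga
The GC box GGGCGG, searched on both strands, was in 78.8% of the 33 genes against 67.4% of genes tested, and its ends can share letters with the Ets core. The median GC content of the promoters was 59.7% for the listed genes and 60.3% for genes tested.

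Levels below are log2 of the array signal, and differences are in log2 units, so that 1 unit is 2-fold; a level can be compared between samples and not between genes. A gene was called when the Benjamini-Hochberg adjusted p of limma, taken over all genes tested, was under 0.05 and the change at least 2-fold. All arrays were scaled to the same mean signal, so the values give shares of the RNA, not amounts per cell, and fewer cells of a type cannot be told apart from less RNA per cell. Correlations between arrays of a group ran from 0.761 to 0.924 in lymphomas, from 0.970 to 0.974 in activated and from 0.968 to 0.976 in resting cells. The actin 3′ to 5′ ratio, a control of RNA quality that rises when RNA is broken, was 1.93 ± 0.40 in lymphomas (SD, n = 9), 1.52 ± 0.03 in activated and 1.35 ± 0.13 in resting cells (SD, n = 3 each). The Gapdh ratio ordered the normal cells the other way, at 1.85 ± 0.30, 1.31 ± 0.05 and 2.02 ± 0.18 in the same groups. The mean level of the 5 measured of 6 T cell markers lay between 8.44 and 12.67 in lymphomas, 12.89 and 12.97 in activated and 13.04 and 13.36 in resting cells. None of these markers was at the floor in every sample of a group, but Cd3e was at the floor in 1 lymphoma. The labels name a version of the software only for lymphomas and an amplification kit only for normal cells, and a batch of that kind cannot be told apart from the group in the lymphoma comparisons.

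The comparison of activated with resting cells asks how these genes differed between T cells activated in culture and T cells without that activation. Activation cannot be told apart here from any difference in culture, source tissue or donor injections between the groups. Many of them were lower in activated cells: 17 of 37 were called lower (45.9%; 4.23% of all genes tested were), and 0 were called higher by limma (8.45% of all genes), with 2 higher at an unadjusted p under 0.05. After quantile normalization the shares of all genes were 5.58% lower and 7.25% higher, and 16 of the listed genes were called lower. Their median difference was -0.93, against 0.02 over all genes tested. In 30 of the 37 genes all activated samples lay below all resting samples, and in 3 they lay above; 23.3% of all genes tested fell in each of these classes. A further 11 genes passed the adjusted p with a change under 2-fold, 10 of them lower and Wdr12 higher. The count of 17 was 8 when the 9 lymphomas entered the same fit, which called 0.857% of all genes lower. In that fit Ddx18, Fbl, Grwd1, Nip7, Nop56, Nop58, Polr1b, Rrs1 and Srm were no longer called. Markers of other cells moved too: the mean level of 8 macrophage markers was 5.40 to 5.55 in activated and 7.10 to 7.59 in resting samples, with C1qa, C1qc and Clec4f at the floor in every activated sample, and that of 7 stroma markers was 7.50 to 7.98 in activated and 6.21 to 6.22 in resting samples. Their part in the result was not tested.

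The lymphomas were also set against both normal states. Against resting cells, 4 of 37 genes were called higher (10.8%; 7.03% of all genes), namely Nhp2, Odc1, Noc4l and Rrs1, and 0 were called lower by limma (6.84% of all genes), with 14 higher and 0 lower at an unadjusted p under 0.05. The median difference was 0.57, against -0.02 over all genes. In 5 genes every lymphoma lay above every resting sample, as did 8.36% of all genes. The 10.8% called is close to the share of all genes. The count was 1 without any single resting sample (3.78% to 3.97% of all genes), 7 without mPTCL 4 (7.61%) and 8 without mPTCL 5 (7.91%). Against activated cells, 26 of 37 were called higher (70.3%; 7.04% of all genes) and 0 lower by limma (8.28% of all genes), with 31 higher and 0 lower at an unadjusted p under 0.05. The median difference was 1.51, against -0.08 over all genes; quantile normalization put these at 1.43 and 0.08. In 25 genes every lymphoma lay above every activated sample, as did 9.78% of all genes. The count was 16 without activated replicate 2 and 15 without activated replicate 3, where 3.89% and 3.98% of all genes were called higher.

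Markers of other cells were high in several lymphomas. The mean of 10 neutrophil markers lay between 5.50 and 12.11 in lymphomas, 5.64 and 5.94 in activated and 5.63 and 5.86 in resting cells; Lcn2 and Cxcr2 were at the floor in every normal sample. The mean of 8 B cell markers ran from 5.89 to 12.06 in lymphomas, 6.69 to 8.61 in activated and 7.95 to 8.59 in resting cells. Without the 6 lymphomas high in neutrophil markers, 8 genes were called higher against resting cells (6.4% of all genes) and 26 against activated cells (7.92%). Without the 2 high in B cell markers, the counts were 6 (7.24% of all genes) and 27 (8.02%). The activated and resting samples enter 2 comparisons each, so the differences of a gene in the 3 comparisons are not independent and are given side by side.

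**Figure D2:**
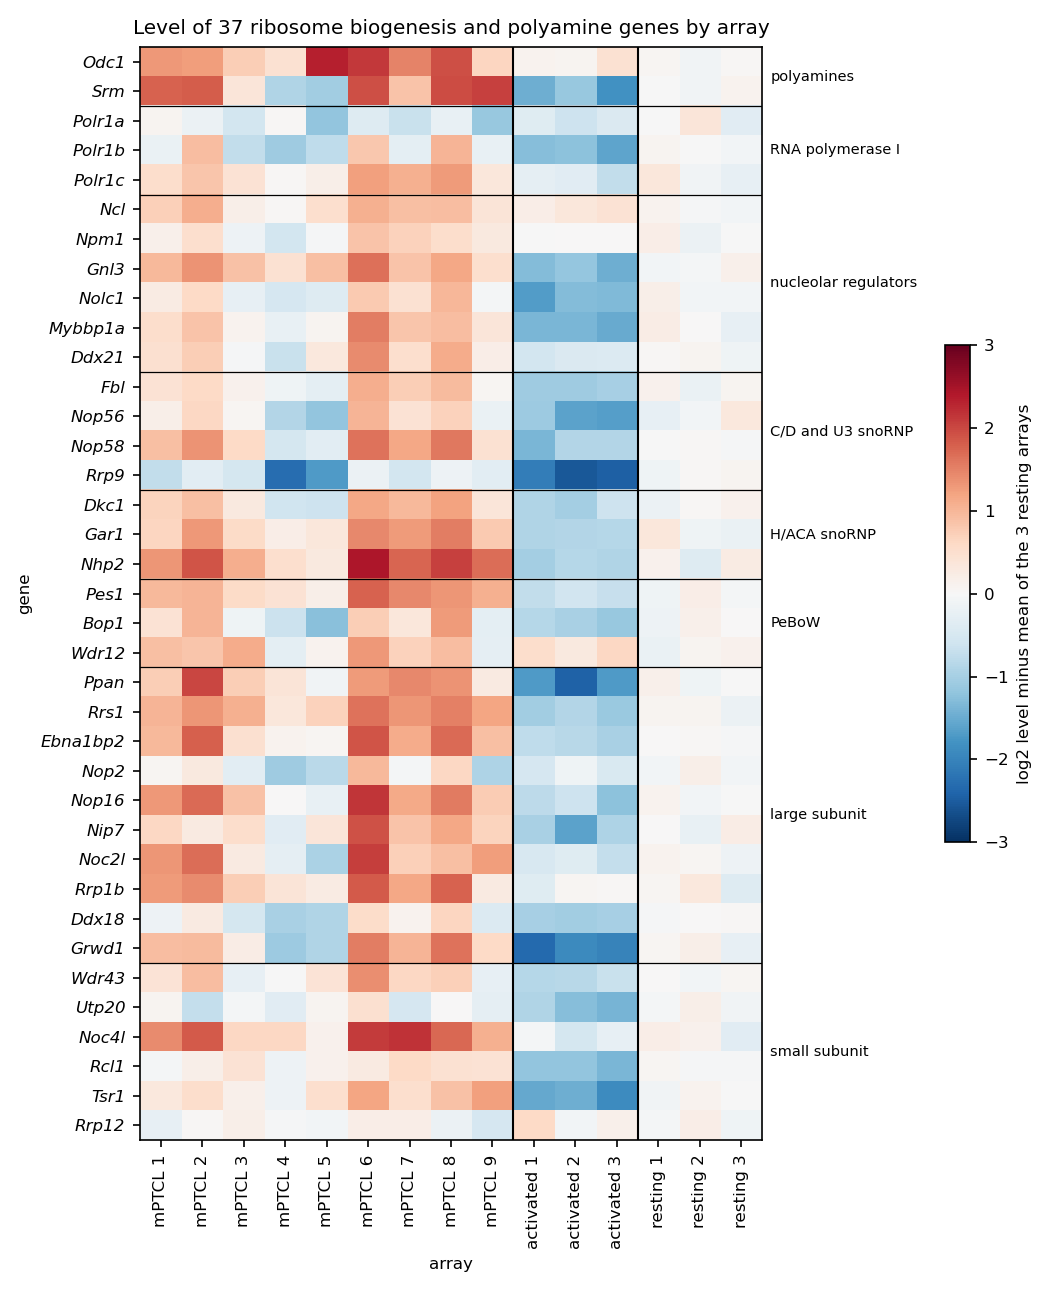
Log2 level of 37 genes in each of the 9 mPTCL, 3 activated and 3 resting samples, as the difference from the mean of the 3 resting samples; rows are grouped by role, red is higher and blue lower. The activated columns are blue in most rows, with Rrp9, Grwd1 and Ppan the lowest, while mPTCL 4 and mPTCL 5 are paler or bluer than the other lymphomas.

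**Figure D3:**
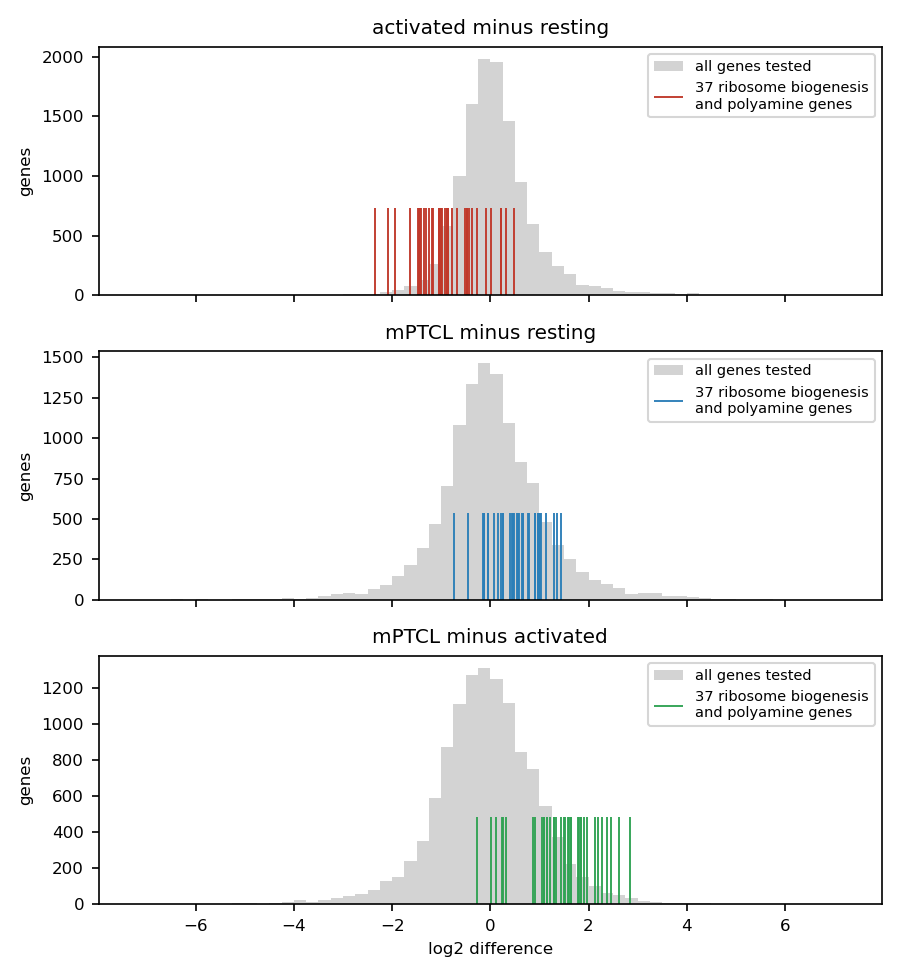
Differences of 37 ribosome biogenesis and polyamine genes (coloured lines, whose height carries no value) over the histogram of all 11902 genes tested, in log2 units, for the 3 comparisons. The lines lie mostly left of 0 for activated minus resting, with a median of -0.93, and right of 0 for mPTCL minus activated, with a median of 1.51.

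The 2 polyamine enzymes measured, Odc1 and Srm, were called higher in lymphomas than in activated cells; Odc1 was also called higher in lymphomas than in resting cells, and Srm fell in activated against resting cells. Odc1, ornithine decarboxylase, makes putrescine and is the rate-limiting step of polyamine synthesis. Its level had a lowest, median and highest value of 11.78, 12.63 and 13.67 in lymphomas, was 11.44, 11.42 and 11.78 in the activated samples, and 11.40, 11.24 and 11.36 in the resting samples. Every lymphoma lay above every resting sample, and the lowest lymphoma met the highest activated sample. Odc1 was higher in lymphomas than in resting cells by 1.36 ± 0.37 (SE; adjusted p = 0.0225) and than in activated cells by 1.15 ± 0.37 (adjusted p = 0.0429), and differed by 0.21 ± 0.12 between activated and resting cells (adjusted p = 0.223). The call against resting cells was lost without any single resting sample (adjusted p 0.0799 to 0.0978), and that against activated cells under 14 alternatives (adjusted p 0.0545 to 0.153).

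Srm, spermidine synthase, turns putrescine into spermidine. Its level was 10.21, 13.02 and 13.29 (lowest, median, highest) in lymphomas, 9.78, 10.10 and 9.43 in the activated samples, and 11.24, 11.14 and 11.36 in the resting samples. The activated samples were below all others, and the lymphomas spread on both sides of the resting samples, with the widest spread of the 37 genes (SD 1.24). Srm fell by 1.47 ± 0.18 in activated against resting cells (SE; adjusted p = 0.00187) and was 2.45 ± 0.66 higher in lymphomas than in activated cells (adjusted p = 0.0207). Between lymphomas and resting cells it differed by 0.98 ± 0.65 (adjusted p = 0.319). The higher level than in activated cells was not called without any single activated sample (adjusted p 0.0649 to 0.0969).

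Of the RNA polymerase I subunits, Polr1b, the second-largest, differed most between activated and resting cells and between lymphomas and activated cells, and least between lymphomas and resting cells. Its level was 9.14, 9.96 and 11.22 (lowest, median, highest) in lymphomas, 8.92, 8.97 and 8.61 in activated samples, and 10.28, 10.19 and 10.11 in resting samples. Activated samples were lowest without overlap, while the resting samples lay inside the range of the lymphomas. It fell by 1.36 ± 0.14 in activated against resting cells (SE; adjusted p = 0.00111), was 1.30 ± 0.44 higher in lymphomas than in activated cells with an adjusted p of 0.0522, and differed by -0.06 ± 0.43 between lymphomas and resting cells (adjusted p = 0.945). Polr1c, a subunit shared with RNA polymerase III, was 2.15-fold higher in lymphomas than in activated cells (adjusted p = 0.0147), a call lost under 5 alternatives (adjusted p 0.00928 to 0.0905), and its other probe set gave 0.62. Its differences of 0.66 ± 0.28 from resting cells (adjusted p = 0.121) and of -0.44 between activated and resting cells (adjusted p = 0.127) were not called. Polr1a, the largest subunit, was called in no comparison, with -0.48 between activated and resting cells, -0.46 between lymphomas and resting cells and 0.02 between lymphomas and activated cells.

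Among 6 nucleolar scaffold and regulator proteins, Ncl and Npm1 were called in no comparison, while Gnl3, Nolc1 and Mybbp1a fell in activated against resting cells and were higher in lymphomas than in activated cells. Ncl, nucleolin, an RNA-binding protein of the nucleolus, had levels of 13.80, 14.48 and 14.85 (lowest, median, highest) in lymphomas, 13.96, 14.10 and 14.21 in activated samples, and 13.88, 13.74 and 13.68 in resting samples. The activated samples were all slightly above the resting samples, and the lymphomas overlapped both. Its differences were 0.33 ± 0.11 between activated and resting cells (SE; adjusted p = 0.0604), 0.64 ± 0.23 between lymphomas and resting cells (adjusted p = 0.0637) and 0.32 ± 0.22 between lymphomas and activated cells (adjusted p = 0.327). The first of these was -0.030 when all probe sets of Ncl were averaged. Npm1, nucleophosmin, a nucleolar chaperone, was at 13.65, 14.50 and 15.07 in lymphomas, 14.20, 14.21 and 14.23 in activated samples, and 14.41, 14.02 and 14.19 in resting samples. All groups overlapped, with differences of 0.01 ± 0.12 between activated and resting cells (adjusted p = 0.983), 0.25 ± 0.26 between lymphomas and resting cells (adjusted p = 0.523) and 0.25 ± 0.25 between lymphomas and activated cells (adjusted p = 0.503).

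Gnl3, nucleostemin, a nucleolar GTPase of dividing cells, had levels of 11.78, 12.21 and 12.97 (lowest, median, highest) in lymphomas, 10.01, 10.14 and 9.84 in activated samples, and 11.23, 11.25 and 11.46 in resting samples. The 3 groups did not overlap, with the lymphomas highest and the activated samples lowest. Gnl3 was higher in lymphomas than in activated cells by 2.28 ± 0.24 (adjusted p = 1.31e-04), fell by 1.31 in activated against resting cells (adjusted p = 6.42e-04) and, between lymphomas and resting cells, passed the adjusted p with 0.97 ± 0.23, just under 2-fold (adjusted p = 0.0136). Both calls of Gnl3 held under every alternative run.

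Nolc1, a chaperone of snoRNPs, had levels of 11.61, 12.38 and 13.12 (lowest, median, highest) in lymphomas, 10.44, 10.83 and 10.81 in activated samples, and 12.29, 12.05 and 12.03 in resting samples. It fell by 1.43 ± 0.13 in activated against resting cells (SE; adjusted p = 8.59e-04) and was 1.64 higher in lymphomas than in activated cells (adjusted p = 0.00374). The second of these calls was lost with the mean of its probe sets (adjusted p = 0.135), of which another gave -0.15. Mybbp1a, a Myb-binding protein of the nucleolus, was at 11.85, 12.59 and 13.60 in lymphomas, 10.70, 10.68 and 10.55 in activated samples, and 12.28, 12.08 and 11.82 in resting samples. For both genes the activated samples lay below all 12 others. Mybbp1a fell by 1.42 ± 0.13 in activated against resting cells (adjusted p = 7.48e-04) and was 1.97 ± 0.30 higher in lymphomas than in activated cells (adjusted p = 0.0014), lost without probe sets matching several transcripts (adjusted p = 0.0612). Ddx21, an RNA helicase that acts in polymerase I transcription and RNA processing, was called in no comparison, although its -0.47 between activated and resting cells passed the adjusted p (0.0106).

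The box C/D and U3 snoRNP was the role in which every measured gene was called in activated cells. Of its 4 genes, 4 fell against resting cells (4.23% of all genes did). Against activated cells 4 of 4 were higher in lymphomas (7.04% of all genes were). Rrp9, a protein of the U3 particle that begins the cutting of ribosomal RNA, had levels of 7.64, 9.41 and 9.78 (lowest, median, highest) in lymphomas, 7.85, 7.40 and 7.49 in activated samples, and 9.81, 9.97 and 10.02 in resting samples. Every lymphoma and every activated sample lay below every resting sample, and mPTCL 4 overlapped the activated samples. Rrp9 fell by 2.35 ± 0.18 in activated against resting cells (SE; adjusted p = 4.14e-04), the largest change of the 37 genes in that comparison. It was 1.60 ± 0.43 higher in lymphomas than in activated cells (adjusted p = 0.0203), a call lost without any single activated sample (adjusted p 0.0595 to 0.0948). It differed by -0.75 ± 0.42 between lymphomas and resting cells (adjusted p = 0.236), where only Rrp9 of the 37 had all lymphomas below all resting samples (11% of all genes did).

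Fbl, fibrillarin, the enzyme that methylates ribosomal RNA, had levels of 12.58, 13.31 and 13.96 (lowest, median, highest) in lymphomas, 11.81, 11.80 and 11.88 in activated samples, and 12.99, 12.67 and 12.96 in resting samples. The activated samples lay below all others. Fbl fell by 1.04 ± 0.11 in activated against resting cells (SE; adjusted p = 0.00108), was 1.44 ± 0.27 higher in lymphomas than in activated cells (adjusted p = 0.00372) and differed by 0.40 ± 0.28 between lymphomas and resting cells (adjusted p = 0.339). Nop56 and Nop58, the paired scaffold proteins of the same particle, fell by 1.45 ± 0.20 (adjusted p = 0.0032) and 1.04 (adjusted p = 0.00451) in activated against resting cells. In lymphomas they were higher than in activated cells by 1.53 (adjusted p = 0.0189) and 1.80 ± 0.44 (adjusted p = 0.0123). The call of Nop56 there was lost under 4 alternatives (adjusted p 0.0880 to 0.735), and its other probe set gave 0.24. The call of Nop58 was lost without activated replicate 1 (adjusted p = 0.0722). The differences of lymphomas from resting cells were 0.08 for Nop56 (-0.023 after quantile normalization) and 0.76 ± 0.43 for Nop58 (adjusted p = 0.235).

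The box H/ACA snoRNP turns uridine into pseudouridine and is also part of telomerase. Of its listed genes, 3 of 3 were higher in lymphomas than in activated cells (7.04% of all genes were). Nhp2, which binds the guide RNA, had levels of 12.06, 13.43 and 14.18 (lowest, median, highest) in lymphomas, 10.73, 10.90 and 10.86 in activated samples, and 11.89, 11.38 and 12.01 in resting samples. The groups did not overlap, with lymphomas highest and activated samples lowest. Nhp2 was higher in lymphomas than in activated cells by 2.37 ± 0.38 (SE; adjusted p = 0.00183) and than in resting cells by 1.44 ± 0.39 (adjusted p = 0.0235). The call against resting cells was lost without any single resting sample (adjusted p 0.0678 to 0.127). Between activated and resting cells Nhp2 differed by -0.93 ± 0.17 (adjusted p = 0.00805), Gar1 by -0.88 (adjusted p = 0.00607) and the pseudouridine synthase Dkc1 by -0.85 (adjusted p = 0.00488), all under 2-fold. Gar1 was 1.78 higher in lymphomas than in activated cells (adjusted p = 0.0015) and differed from resting cells by 0.90 (adjusted p = 0.0468), under 2-fold. Dkc1 was 1.34 higher in lymphomas than in activated cells (adjusted p = 0.0261), a call lost without any single activated sample (adjusted p 0.0725 to 0.114).

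Pes1, Bop1 and Wdr12 form the PeBoW complex, which is needed for the large subunit, and between activated and resting cells Wdr12 differed in the opposite direction to Pes1 and Bop1. Pes1 had levels of 11.52, 12.37 and 13.13 (lowest, median, highest) in lymphomas, 10.60, 10.77 and 10.65 in activated samples, and 11.21, 11.55 and 11.28 in resting samples. It was higher in lymphomas than in activated cells by 1.65 ± 0.29 (SE; adjusted p = 0.00261), without overlap. Against resting cells it passed the adjusted p at 0.98 ± 0.29 (adjusted p = 0.0369), under 2-fold, but was -0.19 with the mean of its probe sets, and it differed by -0.67 between activated and resting cells (adjusted p = 0.0063).

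Bop1 was at 10.56, 10.45 and 10.28 in activated samples and 11.26, 11.56 and 11.44 in resting samples, a difference of -0.99 ± 0.12 (adjusted p = 0.00177) that stopped just short of 2-fold. Its differences of 1.15 between lymphomas and activated cells (adjusted p = 0.0815) and 0.16 between lymphomas and resting cells (adjusted p = 0.835) were not called. Wdr12 went the other way, at 10.25, 10.02 and 10.35 in activated samples and 9.52, 9.81 and 9.85 in resting samples, a difference of 0.48 that passed the adjusted p (0.0439) under 2-fold. Between lymphomas and activated cells Wdr12 differed by 0.11, and by -0.45 when its probe sets were averaged.

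Among 10 large subunit assembly factors, 5 fell in activated against resting cells (4.23% of all genes did), namely Grwd1, Ppan, Nip7, Ddx18 and Rrs1. In lymphomas 7 were higher than in activated cells (7.04% of all genes were). Ppan, whose yeast counterpart Ssf1 joins early large subunit particles, had levels of 9.48, 10.32 and 11.58 (lowest, median, highest) in lymphomas, 7.88, 7.15 and 7.88 in activated samples, and 9.73, 9.44 and 9.56 in resting samples. Activated samples were far below the rest. Ppan was 2.84 ± 0.40 higher in lymphomas than in activated cells (SE; adjusted p = 7.70e-04), the largest change of the 37 genes in that comparison, fell by 1.94 ± 0.25 in activated against resting cells (adjusted p = 0.00233), and differed by 0.90 between lymphomas and resting cells (adjusted p = 0.115).

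Grwd1, whose yeast counterpart escorts the ribosomal protein L3, was at 8.93, 10.94 and 11.66 (lowest, median, highest) in lymphomas, 7.68, 8.11 and 8.02 in activated samples, and 10.09, 10.21 and 9.77 in resting samples. It fell by 2.08 ± 0.19 in activated against resting cells (adjusted p = 7.55e-04) and was 2.63 ± 0.53 higher in lymphomas than in activated cells (adjusted p = 0.00514). Its promoter holds an E-box after the start site, printed above. Rrs1, which in yeast helps bring 5S RNA into the large subunit, was at 12.19, 13.03 and 13.48 in lymphomas, 10.80, 10.96 and 10.73 in activated samples, and 11.93, 11.92 and 11.67 in resting samples, 3 ranges without overlap. Rrs1 was higher in lymphomas than in activated cells by 2.13 ± 0.24 (adjusted p = 2.16e-04) and than in resting cells by 1.12 ± 0.24 (adjusted p = 0.00767). The call against resting cells was lost under 2 alternatives, among them leaving out resting replicate 3 (adjusted p = 0.0529). The fall of Rrs1 in activated against resting cells, by 1.01 (adjusted p = 0.00129), was lost under 5 alternatives (adjusted p 0.0060 to 0.0587).

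Nip7 fell by 1.17 (adjusted p = 0.00984) and the RNA helicase Ddx18 by 1.02 (adjusted p = 2.80e-04) in activated against resting cells. The factors Ebna1bp2, Nop16, Nip7 and Rrp1b were higher in lymphomas than in activated cells, 3.61-fold, 3.75-fold, 3.58-fold and 2.15-fold, with adjusted p from 0.00492 for Nip7 to 0.046 for Rrp1b; the call of Rrp1b was lost under 11 alternatives, that of Nop16 without activated replicate 3 (adjusted p = 0.0606) and that of Ebna1bp2 with the mean of probe sets. Ebna1bp2, Nop16 and Rrp1b reached 2-fold against resting cells without passing the adjusted p (0.0837, 0.108 and 0.0714). Nop2, a methyltransferase of large subunit RNA, and Noc2l, a relative of a yeast factor for export of the large subunit, were called in no comparison. Between activated and resting cells Nop2 differed by -0.37 and Noc2l by -0.51, and between lymphomas and activated cells by 0.24 for Nop2 and 1.29 for Noc2l (adjusted p = 0.0921).

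Among 6 small subunit assembly factors, 3 fell in activated against resting cells (4.23% of all genes did). In lymphomas 5 were higher than in activated cells (7.04% of all genes were). Tsr1, which acts late in the maturation of the small subunit, was at 12.00, 12.66 and 13.37 (lowest, median, highest) in lymphomas, 10.60, 10.69 and 10.25 in activated samples, and 12.05, 12.25 and 12.14 in resting samples. The activated samples were lowest by more than 1 log2 unit. Tsr1 fell by 1.63 ± 0.13 in activated against resting cells (SE; adjusted p = 4.97e-04) and was 2.20 ± 0.27 higher in lymphomas than in activated cells (adjusted p = 3.48e-04). Its difference between lymphomas and resting cells was 0.57 (adjusted p = 0.149).

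Noc4l, a relative of a yeast factor of small subunit assembly, was at 9.48, 10.78 and 11.53 (lowest, median, highest) in lymphomas, 9.30, 8.83 and 9.10 in activated samples, and 9.55, 9.49 and 9.02 in resting samples. It was 1.30 ± 0.41 higher in lymphomas than in resting cells (adjusted p = 0.0441), a call lost under 14 alternatives (adjusted p 0.0517 to 0.180), and 1.58 higher than in activated cells (adjusted p = 0.0174), lost under 5. Without probe sets that match several transcripts, the value against resting cells was -0.024. Rcl1, a protein of early small subunit particles, was at 9.62, 10.04 and 10.37 in lymphomas, 8.58, 8.58 and 8.39 in activated samples, and 9.83, 9.74 and 9.73 in resting samples, so that only the activated samples stood apart.

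Rcl1 fell by 1.25 in activated against resting cells (adjusted p = 0.00113) and was 1.51 higher in lymphomas than in activated cells (adjusted p = 7.37e-04). Utp20, a large scaffold protein of the small subunit processome, fell by 1.19 in activated against resting cells (adjusted p = 0.00255) and was 1.06 higher in lymphomas than in activated cells (adjusted p = 0.00948), lost under 4 alternatives. Wdr43, a protein of the same particle, differed by -0.78 between activated and resting cells, under 2-fold (adjusted p = 0.00188), and was 1.22 higher in lymphomas than in activated cells (adjusted p = 0.0163), also lost under 4 alternatives. Rrp12, which in yeast serves the export of both subunits, was called in no comparison; it differed by 0.22 between activated and resting cells, by -0.05 between lymphomas and resting cells (0.060 after quantile normalization), and by -0.27 between lymphomas and activated cells.

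**Figure D4:**
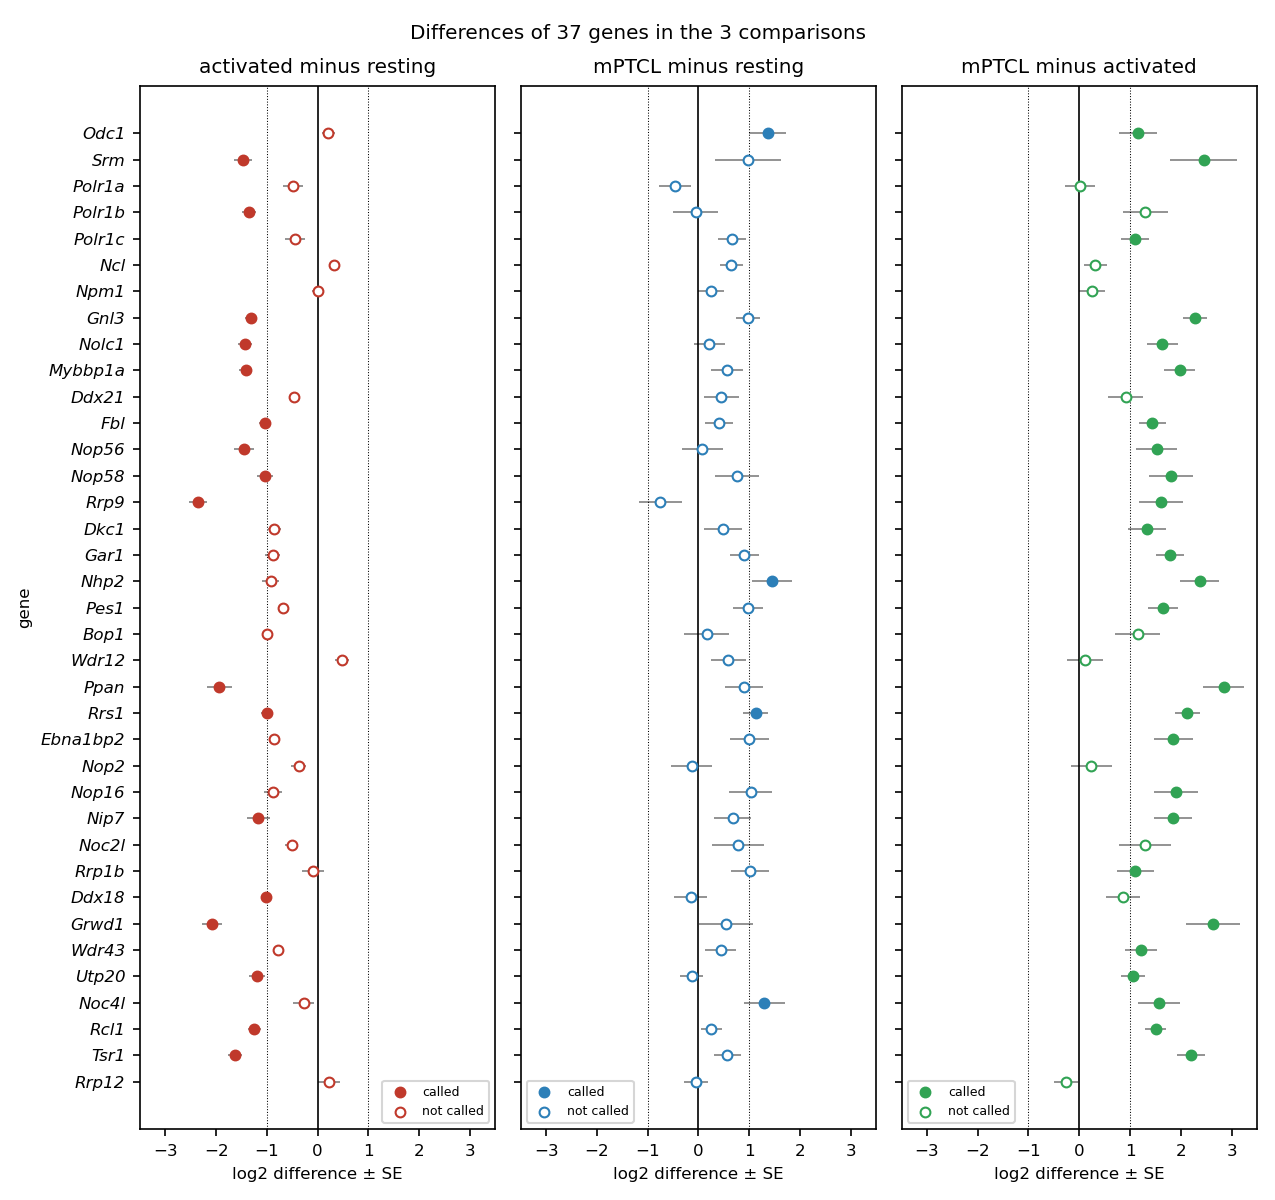
Difference of each of 37 genes in the 3 comparisons, in log2 units with its standard error; filled points were called and dotted lines mark 2-fold. Called points lie left of -1 for 17 genes in activated minus resting, right of 1 for 4 in mPTCL minus resting and right of 1 for 26 in mPTCL minus activated.

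Other genes of the same machinery were taken from lists by function. Between activated and resting cells, 11 of 41 further small subunit processome genes were called lower, among them Bysl (-2.03 ± 0.15, adjusted p = 3.54e-04), which acts in small subunit maturation, and Pwp2 (-1.70 ± 0.25, adjusted p = 0.00404). Of 39 further large subunit genes 7 were lower, with Ftsj3 at -1.87 and Rrp15 at -1.62. Of 11 snoRNP assembly genes 3 were lower, among them Shq1 (-1.54), an assembly chaperone of H/ACA particles, and Znhit6 (-1.35), which serves C/D particles. The shares called lower were 26.8%, 17.9% and 27.3%, beside 4.23% of all genes. In these 3 lists limma called 0 genes higher (8.45% of all genes), with 1, 0 and 0 higher at an unadjusted p under 0.05. The lists had medians of -0.59, -0.62 and -0.51, against 0.02 over all genes. Of 9 genes of RNA polymerase I transcription 1 was called higher (11.1%, beside 8.45% of all genes). It was Polr1d, a subunit shared with RNA polymerase III, higher by 1.21 ± 0.09 (adjusted p = 4.02e-04). In this list 0 were lower by limma (3 at an unadjusted p under 0.05). Of 10 genes of polyamine turnover and use, 1 was lower (10%, beside 4.23% of all genes) and 0 were higher by limma (1 at an unadjusted p under 0.05). The lower gene was Mtap (-1.31), which recycles a by-product of polyamine synthesis.

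In lymphomas against activated cells, 15 of the 41 small subunit genes were called higher, with Pno1 (2.51 ± 0.33) and Utp6 (1.95 ± 0.41) the largest, 13 of the 39 large subunit genes, with Rrp15 (2.38) and Wdr18 (1.66), and 5 of the 11 snoRNP assembly genes, with Znhit3 (1.83) and Znhit6 (1.68). The shares called higher were 36.6%, 33.3% and 45.5%, beside 7.04% of all genes. In these 3 lists limma called 0 genes lower (8.28% of all genes), with 1, 0 and 0 lower at an unadjusted p under 0.05. Their medians were 0.86, 0.90 and 0.92, against -0.08 over all genes. Of the 9 polymerase I genes 1 was lower (11.1%, beside 8.28% of all genes), the termination factor Ttf1 (-1.13). In that list 0 were higher by limma (3 at an unadjusted p under 0.05). Of the 10 polyamine genes 1 was higher (10%, beside 7.04% of all genes), and 0 were lower, also at an unadjusted p under 0.05. The higher gene was Dhps (1.26), which uses spermidine to modify the translation factor eIF5A. Against resting cells, 3 of the 41 small subunit genes were called higher (7.32%, beside 7.03% of all genes), among them Utp6 (1.38) and Pno1 (1.17), and 0 lower by limma, with 6 higher and 5 lower at an unadjusted p under 0.05. In the same comparison 1 snoRNP assembly gene was higher, Nufip1 (1.28), which is 9.09% of its list, beside 7.03% of all genes. Of the polymerase I genes Polr1d was higher (1.95) and Taf1b, a promoter factor, lower (-1.13). Each is 11.1% of that list, beside 7.03% higher and 6.84% lower over all genes. In the large subunit list limma called 0 genes against resting cells (6 higher at an unadjusted p under 0.05), and in the polyamine list 0 (0 at an unadjusted p under 0.05).

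Myc and the division marker Mki67 were read beside these genes. Myc had levels of 10.71, 12.07 and 13.73 (lowest, median, highest) in lymphomas, 11.17, 11.38 and 11.06 in activated samples, and 11.36, 11.49 and 11.24 in resting samples. The lymphomas mPTCL 4 and mPTCL 5 lay below every normal sample, and the other lymphomas, from 11.82 up, lay above every normal sample. No difference was called: -0.16 between activated and resting cells (adjusted p = 0.331), 0.97 between lymphomas and resting cells (adjusted p = 0.268) and 1.13 between lymphomas and activated cells (adjusted p = 0.187). Activated cells exceeded resting cells in Mki67 by 4.17 (adjusted p = 9.64e-05), and lymphomas exceeded resting cells by 3.54 (adjusted p = 1.88e-04). Beside this higher Mki67, the 37 genes of ribosome and polyamine synthesis had a median difference of -0.93 between activated and resting cells. By value 32 of them were lower and 5 higher, and 17 were called lower.

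The lymphomas differed from each other across the whole list. Measured from the mean of the 9 lymphomas, the median deviation of the 37 genes was 0.72 in mPTCL 6, 0.55 in mPTCL 8, 0.40 in mPTCL 2, 0.20 in mPTCL 7, 0.02 in mPTCL 1, -0.25 in mPTCL 9, -0.29 in mPTCL 3, -0.69 in mPTCL 5 and -0.80 in mPTCL 4. All 37 genes were above the lymphoma mean in mPTCL 6, which had the highest level of 19, and 36 in mPTCL 8, which had the highest of 9. In mPTCL 4 and mPTCL 5, 2 genes each were above the mean, and these tumours had the lowest level of 20 and 14 genes. Odc1 was an exception, since its highest level was in mPTCL 5. The SD of a gene over the 9 lymphomas had a median of 0.62 and ran from 0.24 for Rrp12 to 1.24 for Srm; the median over all genes tested was 0.60, and 19 of the 37 lay above it.

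Neutrophil and macrophage markers and the actin ratio were high in mPTCL 4 and mPTCL 5, the lymphomas lowest in these genes, but not in every lymphoma below the mean. In mPTCL 4 and mPTCL 5 the mean neutrophil marker level was 11.37 and 12.11, the macrophage level 10.23 and 8.77, the T cell level 8.44 and 9.82, and the actin 3′ to 5′ ratio 2.41 and 2.65. In mPTCL 6 and mPTCL 7 the neutrophil level was 7.19 and 6.03, the T cell level 11.05 and 12.67, and the actin ratio 1.69 and 1.65. The tumour mPTCL 8, however, had a neutrophil level of 10.74 and 36 of the 37 genes above the mean. In mPTCL 1 and mPTCL 2, with median deviations of 0.02 and 0.40, the neutrophil level was 11.03 and 9.81. In mPTCL 3 and mPTCL 9, with median deviations of -0.29 and -0.25, it was 5.50 and 8.26, and the actin ratio was 2.23 and 1.64. The T cell level was 9.06 and 10.73 in mPTCL 3 and mPTCL 9, and 11.86, 12.03 and 11.46 in mPTCL 1, mPTCL 2 and mPTCL 8. Every lymphoma with a negative median deviation thus had a lower T cell level than any other lymphoma. Myc stood at 10.71 and 10.87 in mPTCL 4 and mPTCL 5, and at 13.73 in mPTCL 6. Its level was 11.82 and 12.07 in mPTCL 3 and mPTCL 9, and 12.06 and 13.53 in mPTCL 1 and mPTCL 2. In mPTCL 7 and mPTCL 8 it was 13.18 and 13.01. The part of these measures in the differences between lymphomas was not tested.

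**Figure D5:**
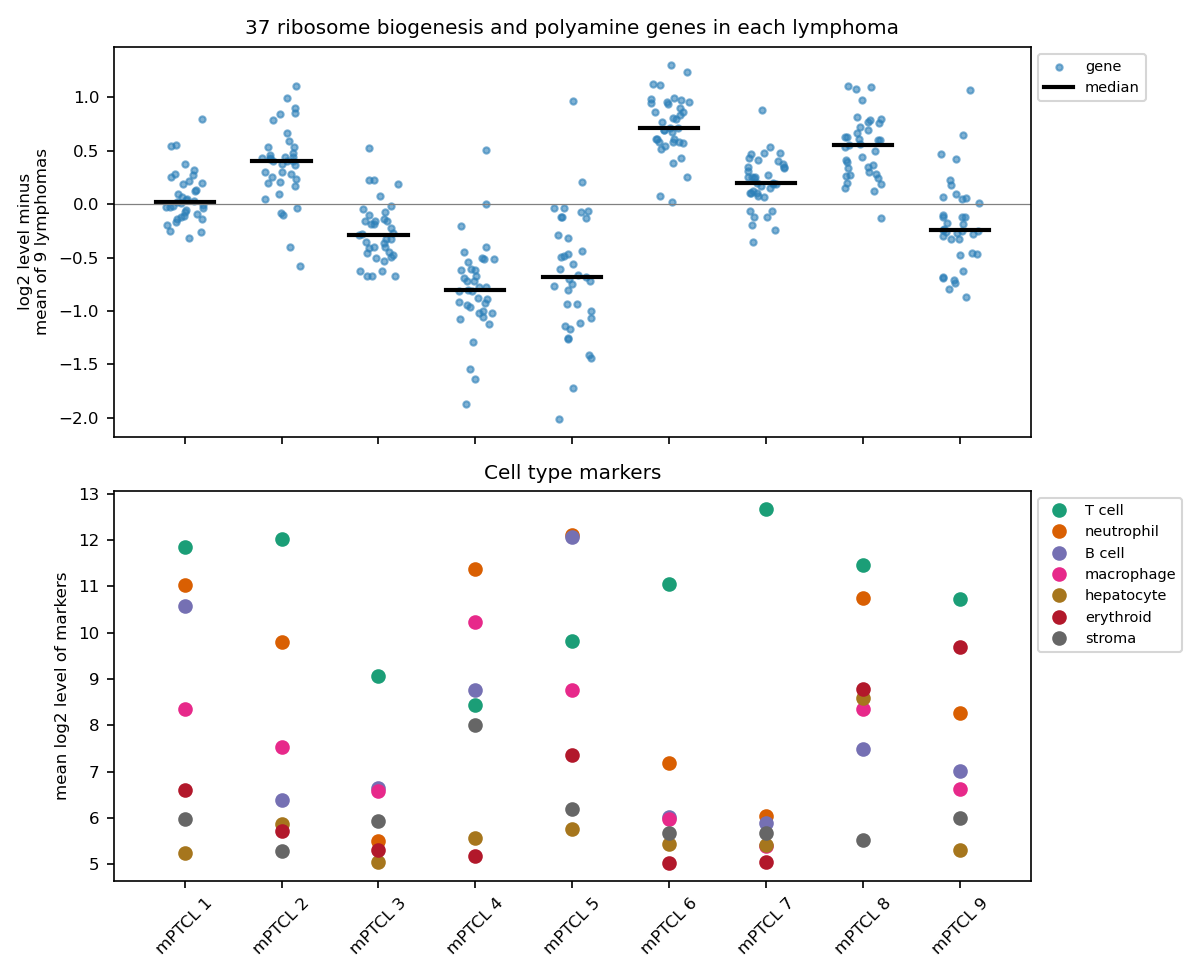
Top, deviation of 37 genes from the mean of the 9 lymphomas in log2 units (points, spread sideways for visibility) with the median of each lymphoma (bar). Bottom, mean log2 level of the marker list of each cell type in the same lymphomas; mPTCL 4 and mPTCL 5, lowest on top, have neutrophil marker levels of 11.37 and 12.11.

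Several genes are covered by more than 1 probe set, and these did not always move together. Of the 37 genes, 26 had another probe set whose log2 mean in at least 1 group corresponded to a signal of 100 or more; dimmer probe sets were not counted. At least 1 of these brighter probe sets moved opposite to the one used in 4 genes for activated against resting cells (Odc1, Ncl, Ebna1bp2 and Noc4l), in 2 for lymphomas against activated cells (Nolc1 and Wdr12) and in 12 for lymphomas against resting cells (Polr1a, Nolc1, Mybbp1a, Nop56, Dkc1, Pes1, Wdr12, Nop16, Nip7, Ddx18, Noc4l and Tsr1). With the mean of all probe sets of a gene, the median differences were -0.91 between activated and resting cells, 0.30 between lymphomas and resting cells and 1.13 between lymphomas and activated cells.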

How the data were processed

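RNA of 9 lymphomas, 3 activated and 3 resting T cell samples was measured on 15 oligonucleotide arrays with 45101 probe sets. Per the submitters' processing notes, the authors made the deposited intensity values with MAS5, using Affymetrix Expression Console (1.1 for lymphomas, with no version named for normal cells). Each array had a 2% trimmed mean of 500. Values below 32 were set to 32 and log2 was taken. Probe sets with 1 gene symbol (34958; 932 had several and 9211 none) were used, with the highest-mean probe set per gene, and genes reaching 100 in at least 3 arrays were tested. Per pair of groups, limma 3.58.1 in R 4.3.3 was fitted with lmFit and eBayes with a trend, with p-values adjusted over all genes tested. Groups were taken from the labels, and the number of arrays limits the precision. The genes, their roles and the further lists were chosen with earlier results of these data known, so their counts are descriptions beside the share of all genes. Every listed gene was named; full statistics were given for the 8 largest called changes, the largest change of each of the 8 roles, and Srm, Odc1, Ncl, Npm1, Fbl, Polr1b and Rrp9, and of each further list at most 2 called genes per direction. Same-numbered activated and resting samples did not deviate together (correlations of -0.01, 0.05 and -0.01 across genes), so they were not paired. Alternatives were a floor of 64 or 16, adding 16 before the log2, a filter at 200 or none, centring on the median, quantile normalization, averaging probe sets, dropping probe sets that match several transcripts, 1 fit of all 15 arrays, array weights, no trend, a replicate block, the adjusted p alone and leaving out each array; leaving out lymphomas high in neutrophil or B cell markers was chosen after seeing the data. Fits were tested on simulated data. Sequences are from RefSeq, GRCm38.p6. The deleted p53 gene is not analysed here.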

Additional observations from a re-analysis of the deposited data

How the results depend on the processing

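Across the alternatives, the calls of 8 of 17 genes held in every setting for activated against resting cells (Gnl3, Mybbp1a, Nolc1, Ppan, Rcl1, Rrp9, Tsr1 and Utp20), those of 11 of 26 for lymphomas against activated cells (Fbl, Gar1, Gnl3, Grwd1, Nhp2, Nip7, Pes1, Ppan, Rcl1, Rrs1 and Tsr1), and those of 0 of 4 for lymphomas against resting cells by limma. The number called lower in activated against resting cells was 17, beside 4.23% of all genes tested. It was 8 with all 15 arrays in 1 fit (0.857% of all genes) and 27 by the adjusted p alone (15.5%). The adjusted p alone also called 1 higher (15.4% of all genes). The number called lower was 17 with the replicate block (4.07%), where 0 were higher (7.95%), and 16 to 17 without any single array (3.64% to 4.36%). The number called higher in lymphomas against resting cells was 4, beside 7.03% of all genes tested. It was 1 without probe sets matching several transcripts (31 listed genes left, 6.3% of all genes) and 7 by the adjusted p alone (8.9%). With array weights it was also 7, but 1371 of all genes tested were then called higher, against 837 without weights. Without the lymphomas high in neutrophil markers it was 8 (6.4%), and without any single array 1 to 8 (3.78% to 7.91%). The number called higher in lymphomas against activated cells was 26, beside 7.04% of all genes tested. It was 17 without probe sets matching several transcripts (6.1% of all genes) and 15 to 29 without any single array (3.89% to 8.39%). Some differences changed sign, most of them near 0 as reported, with Noc4l (1.30), Pes1 (0.98) and Mybbp1a (0.56) the exceptions furthest from it. For activated against resting cells Ncl was -0.030 with the mean of probe sets, and without any single array Npm1 ran from -0.086 to 0.11 and Rrp1b from -0.28 to 0.078. For lymphomas against resting cells, Nop56 was -0.023 and Rrp12 0.060 with quantile normalization; Nolc1 was -0.28, Nop56 -0.21 and Pes1 -0.19 with the mean of probe sets; Mybbp1a was -0.37, Noc4l -0.024, Nop56 -0.50 and Polr1a 0.12 without probe sets matching several transcripts; Ddx18 was 0.046, Nop2 0.20 and Rrp12 0.20 without the lymphomas high in neutrophil markers, and Polr1b was 0.063 without those high in B cell markers. In that comparison, without any single array, Nop56 ran from -0.043 to 0.24, Rrp12 from -0.11 to 0.051 and Polr1b from -0.19 to 0.068. For lymphomas against activated cells Wdr12 was -0.45 with the mean of probe sets and Polr1a -0.049 without the lymphomas high in neutrophil markers, and Polr1a ran from -0.060 to 0.11 without any single array. The causes of these changes were not tested. The replicate block gave 946 genes higher and 485 lower over all genes tested, against 1006 and 504 without it. With 3 arrays in each normal group, the probe set chosen and the arrays kept set the limit on the smaller differences.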

Other observations

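The nuclear exosome trims ribosomal RNA precursors. In lymphomas against activated cells 4 of 12 of its genes were called higher (33.3%, beside 7.04% of all genes tested) and 0 lower by limma (0 lower at an unadjusted p under 0.05), with the nuclease Dis3 (1.86 ± 0.43, adjusted p = 0.0105) and the ring subunit Exosc9 (1.78 ± 0.29, adjusted p = 0.00183) the largest. Against resting cells 2 of 12 were called higher (16.7%, beside 7.03% of all genes), Mphosph6 (1.66 ± 0.31, adjusted p = 0.00333) and Exosc9 (1.57 ± 0.29, adjusted p = 0.00332). Between activated and resting cells 1 of 12 was called lower (8.33%, beside 4.23% of all genes), Exosc1 (-1.06 ± 0.09, adjusted p = 6.51e-04). The medians of the list were 0.90, 0.25 and -0.59 in these comparisons.

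Genes of the cytosolic ribosomal proteins themselves were counted beside the shares of all genes. Of 77 genes, 42 could be tested, and their signal is uncertain because many have near-identical copies in the genome. Between activated and resting cells 2 of 42 were lower (4.76%, beside 4.23% of all genes), Rpl12 (-2.66 ± 0.13, adjusted p = 1.02e-04) and Rps25 (-1.78 ± 0.18, adjusted p = 0.00115), and the median was -0.21, against 0.02 over all genes tested. In lymphomas against activated cells 3 of 42 were higher (7.14%, beside 7.04% of all genes), among them Rps25 (2.64 ± 0.24, adjusted p = 5.62e-05) and Rpl27a (1.77 ± 0.22, adjusted p = 3.58e-04), with a median of -0.20, against -0.08 over all genes tested. In lymphomas against resting cells 1 of 42 was called in each direction (2.38%, beside 7.03% higher and 6.84% lower over all genes): Rpl27a was higher (2.04 ± 0.23, adjusted p = 1.82e-04) and Rplp2 lower (-1.30 ± 0.26, adjusted p = 0.00553). In that comparison 22 of the 42 were lower and 3 higher at an unadjusted p under 0.05. The median was -0.44, against -0.02 over all genes tested. At the same threshold 5 were lower and 0 higher in activated against resting cells. In lymphomas against activated cells 8 were lower and 5 higher. The share of all genes at that threshold is not given here.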
